A study of Mus musculus with 55 samples.

Results

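Condensins are ring-shaped complexes that compact chromosomes for mitosis, and the genes that encode their subunits are described here as the cell leaves mitosis. Both complexes share the ATPases SMC2 and SMC4. Condensin I adds NCAPH, NCAPD2 and NCAPG and reaches the chromosomes after the nuclear envelope breaks down, whereas condensin II adds NCAPH2, NCAPD3 and NCAPG2 and is in the nucleus throughout the cell cycle. In dividing cells many genes for mitotic proteins are transcribed mostly in late S and G2 phase, through promoters that often combine a CCAAT box with a cell cycle homology region (CHR), and E2F factors act on genes needed from late G1 onwards. The members were taken by symbol: of the 8 genes Smc2, Smc4, Ncapd2, Ncapd3, Ncaph, Ncaph2, Ncapg and Ncapg2, 7 are listed in both tables of pre-mRNA levels, beside 9911 genes in all for CCNA-GFP cells and 10237 for CTCF-AID cells. Ncapg2 is listed in neither table, so that condensin II is represented by Ncapd3 and Ncaph2.

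Pre-mRNA, which still holds its introns and so follows ongoing transcription, was measured by ribo-depleted, stranded RNA-seq in mouse ES cells derived from E14Tg2a, of strain 129/Ola. CCNA-GFP cells, which carry a fluorescent cyclin A cell cycle reporter, gave 19 libraries, and CTCF-AID cells, in which auxin (IAA) triggers the degradation of CTCF, gave 18 libraries without IAA and 18 with it. Apart from the asynchronous cells, all cells of both lines received the CDK1 inhibitor RO-3306 (10 µM, 4 h) and then nocodazole (50 ng/ml, 4 h), were collected by shake-off, and were taken as mitotic cells or at 20 to 120 min after release. In the +IAA arm, 0.5 mM IAA was present for the last 2 h of nocodazole and throughout the release, and the asynchronous cells of that arm received it alongside for 4 h. Each line and arm has 3 libraries of asynchronous and 3 of mitotic cells and 2 at each time point, except that CCNA-GFP has a single library at 50 min and that 30 min was sampled in CCNA-GFP cells only. CTCF-AID is a single clone, the IAA arms are 2 treatments of that clone, and the CCNA-GFP cells were never given IAA. The replicates are independent runs of the procedure, according to the study's methods.

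The values are TPM, a level normalised for the length of the transcript and the size of the library, so that members can be compared with each other. TPM keep no read counts, and the depth behind each value, with its counting error, is therefore unknown. In sum, the listed genes held 13747–42576 TPM in a CCNA-GFP library and 17702–43370 TPM in a CTCF-AID library, with the lowest sums in mitotic and 20 min libraries. The libraries from 50 to 120 min held the highest sums in CCNA-GFP cells (30992–42576 TPM), and those at 50 min in CTCF-AID cells. Within a library the TPM were read as integer multiples of 0.01 TPM times a factor of that library, within a tolerance not given here. The factor (2.17–3.81 in CCNA-GFP, 1.84–2.80 in CTCF-AID) is not described in the sources used here. Every level below therefore includes a change shared by most genes. The main results are also given relative to the median of all genes. They are given as well with every library brought to one common total of listed TPM, called the equal-total scale below. The study reports a burst of most genes after mitosis, and a change shared in that way is taken out on this scale. A fall on it is a fall relative to the sum of the listed genes, and the level itself may have risen. Of 10 ES cell markers 9 were listed in both tables, with summed levels of 32.1–145 TPM in CCNA-GFP and 41.9–158 TPM in CTCF-AID, and Sox2 was not. None of 7 primitive endoderm markers was listed in either table. None of 7 fibroblast markers was listed for CCNA-GFP, and Col1a1 and Thy1 summed to 0.146–3.42 TPM in CTCF-AID. Ctcf pre-mRNA itself stood at 6.22 ± 0.524 TPM in mitotic cells without IAA and 6.56 ± 0.557 TPM with IAA (SD, n = 3 each), as IAA acts on the protein, and these data do not measure its depletion.

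The start-site regions of the members differed in the elements named above, and 4 of them are shown because these genes have the 3 largest changes and the smallest one from mitosis to 60 min in CCNA-GFP cells. They are taken from RefSeq on GRCm38.p6, cover 250 bases before and 50 bases from the start site, and are written 5′ to 3′ on the gene's strand, with matches in capitals. The letters searched on both strands were CCAAT for the CCAAT box, TTTGAA and TTCGAA for the CHR, and TTTGGCGC, TTTCGCGC and TTTCCCGC for E2F, and the core consensus of CTCF was searched by its named motif. Ncapd2 lies at chr6:125191537-125191836 (minus strand), Ncapg at chr5:45669675-45669974, Ncaph at chr2:127133905-127134204 (minus strand) and Ncaph2 at chr15:89355469-89355768.
Ncapd2: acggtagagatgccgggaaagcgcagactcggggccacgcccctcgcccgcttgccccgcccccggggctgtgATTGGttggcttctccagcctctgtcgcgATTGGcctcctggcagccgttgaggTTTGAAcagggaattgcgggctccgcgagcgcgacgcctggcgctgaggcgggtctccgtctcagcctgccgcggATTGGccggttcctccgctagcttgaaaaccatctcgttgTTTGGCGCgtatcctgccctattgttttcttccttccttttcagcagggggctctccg
Ncapg: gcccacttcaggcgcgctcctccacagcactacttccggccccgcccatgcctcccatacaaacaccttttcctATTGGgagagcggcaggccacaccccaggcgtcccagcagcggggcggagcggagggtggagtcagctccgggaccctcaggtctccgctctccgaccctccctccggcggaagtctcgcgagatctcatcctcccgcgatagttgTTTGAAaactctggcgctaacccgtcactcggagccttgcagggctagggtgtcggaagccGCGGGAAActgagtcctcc
Ncaph: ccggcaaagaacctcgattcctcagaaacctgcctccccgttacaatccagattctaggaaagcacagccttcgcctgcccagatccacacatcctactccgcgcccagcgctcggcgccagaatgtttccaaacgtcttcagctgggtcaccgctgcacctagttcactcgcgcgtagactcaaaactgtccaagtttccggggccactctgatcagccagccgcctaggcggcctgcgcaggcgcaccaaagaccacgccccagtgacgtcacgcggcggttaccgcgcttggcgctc
Ncaph2: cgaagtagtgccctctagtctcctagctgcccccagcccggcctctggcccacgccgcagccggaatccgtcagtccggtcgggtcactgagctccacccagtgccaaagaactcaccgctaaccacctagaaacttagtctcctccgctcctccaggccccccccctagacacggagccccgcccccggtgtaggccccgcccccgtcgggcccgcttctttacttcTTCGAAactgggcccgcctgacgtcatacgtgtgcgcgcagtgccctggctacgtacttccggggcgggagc

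Ncapd2 held 3 CCAAT boxes (each read as ATTGG on this strand), 1 CHR and 1 E2F site, and Ncapg held 1 of each. Of 32851 mouse promoters of this length, 37.4% held a CCAAT box, 19.2% a CHR, 1.84% one of the E2F sites and 0.131% all of them. Smc2 held 1 CCAAT box and 2 CHR matches, and Ncaph2 held 1 CHR, a palindrome that reads the same on both strands. Ncaph, and the first of the 2 promoters of Ncapd3, held none of these letters, and none of the promoters of these 6 genes held the CTCF consensus, which 0.557% of all promoters did. A match is a description of the sequence and not a site shown to be bound, and Smc4 has no entry in the promoter table.

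The first question was when, and how far, the condensin genes are transcribed as cells leave mitosis. In CCNA-GFP cells all 7 rose by 60 min on the deposited scale, although on the equal-total scale Ncaph2 fell and the shared ATPases Smc2 and Smc4 did not pass the test. Ncapg and Ncapd2 of condensin I had the largest rises of the 7 on both scales. Ncaph, the other condensin I gene, came next on both but lay close to Ncapd3 of condensin II. The members were not tested against each other. With each library divided by its own factor all 7 were still called higher, beside 7751 of 9911 genes. Ncapg (0.99) and Ncapd2 (0.90) led there, followed by Smc4 (0.82) ahead of Ncaph (0.69), and the smallest change was 0.36. The log2 fold change from mitosis at 60 min, on the log2(TPM + 1) scale, was 1.58 for Ncapg, 1.52 for Ncapd2 and 1.26 for Ncaph, against 1.21 for Ncapd3 and 0.65 for Ncaph2 of condensin II and 1.19 for Smc4 and 1.09 for Smc2. In bulk samples, fewer cells that transcribe a gene and less RNA per cell cannot be told apart.

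Ncapg, a HEAT-repeat subunit of condensin I (chromosome 5, 45669919–45700546 on GRCm38), was at 2.44, 1.73 and 2.59 TPM in the mitotic libraries, 3.07 and 1.82 at 20 min, 3.34 and 3.20 at 30 min, 4.68 and 3.49 at 40 min, 7.98 at 50 min, 9.74 and 6.61 at 60 min, 4.90 and 6.72 at 90 min, and 4.40 and 3.72 at 120 min. Asynchronous cells held 3.45, 3.29 and 4.33 TPM. Both libraries at 40 min lay above every mitotic library, both at 60 min lay above every asynchronous library, and the gene was back within or near the asynchronous range by 120 min. The rise passed the test at 40 min (log2 fold change 0.74, standard error 0.13, limma adjusted p = 1.0e-04) and 60 min (standard error 0.13, adjusted p = 1.0e-09), and the fall from 60 to 120 min was by 0.84 (standard error 0.14, adjusted p = 0.00014). On the equal-total scale the rise to 60 min was 0.50 (standard error 0.09) and the later fall was by 0.64 (standard error 0.10).

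Ncapd2, the other HEAT-repeat subunit of condensin I (chromosome 6, 125168007–125191701), was highest at 60 min in replicates 1 and 2 and at 90 min in replicate 3. It was at 1.78, 1.43 and 2.33 TPM in mitosis, 2.31 and 1.48 at 20 min, 2.61 and 2.88 at 30 min, 3.39 and 2.71 at 40 min, 7.03 at 50 min, 7.61 and 5.16 at 60 min, 4.61 and 7.76 at 90 min, 3.63 and 3.35 at 120 min, and 2.41, 3.27 and 4.51 in asynchronous cells. The libraries at 60 min again lay above all mitotic and asynchronous ones, and those at 120 min lay within the asynchronous range. The log2 fold change from 60 to 120 min was −0.70 (standard error 0.16, limma adjusted p = 0.0024).

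Ncaph, the kleisin that closes the condensin I ring (chromosome 2, 127103809–127133954), was still near its 60 min level at 90 min. Its level was 1.39, 1.20 and 1.94 TPM in mitosis, 1.75 and 1.26 at 20 min, 2.10 and 2.08 at 30 min, 2.52 and 1.71 at 40 min, 4.47 at 50 min, 5.71 and 3.46 at 60 min, 4.61 and 6.01 at 90 min, 3.89 and 3.16 at 120 min, and 2.18, 2.21 and 3.40 in asynchronous cells. The libraries at 40 min overlapped the mitotic ones, whereas those at 60 and 90 min did not. The fall from 60 to 120 min was by 0.28 (standard error 0.13, limma adjusted p = 0.11) and did not pass the test.

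Ncapd3, a HEAT-repeat subunit of condensin II (chromosome 9, 27030175–27095315), followed Ncaph more closely than it followed its counterpart Ncapd2. Its level was 1.57, 1.26 and 1.86 TPM in mitosis, 2.32 and 1.64 at 40 min, 3.75 at 50 min, 5.59 and 3.39 at 60 min, 4.15 and 5.79 at 90 min, and 3.41 and 3.13 at 120 min. Asynchronous cells held 2.12, 2.03 and 3.58 TPM. The kleisin of condensin II, Ncaph2 (chromosome 15, 89355719–89372826), had the smallest change from mitosis of the 7 genes at 40, 60, 90 and 120 min in CCNA-GFP cells. It stood at 3.52, 3.19 and 4.36 TPM in mitosis, 4.78 and 3.86 at 40 min, 6.77 at 50 min, 6.77 and 4.91 at 60 min, 6.06 and 7.46 at 90 min, 5.32 and 5.26 at 120 min, and 5.22, 5.32 and 7.56 in asynchronous cells. At 60 min its libraries lay around the asynchronous ones, with a difference of 0.07 (standard error 0.13, 95% interval −0.19 to 0.33, limma adjusted p = 0.63), and it was the only member not called higher at 60 min than in asynchronous cells on this scale. It was lower at 60 min than in asynchronous cells on the equal-total scale, with a difference of −0.57 (standard error 0.05, limma adjusted p = 1.7e-06).

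Of the shared ATPases, Smc4 (chromosome 3, 69004738–69034623) had the highest level of the 7 genes in the mean of every stage. It went from 5.05, 4.98 and 5.37 TPM in mitosis to 7.62 and 6.69 at 40 min, 11.2 at 50 min, 14.9 and 10.2 at 60 min, 11.2 and 12.5 at 90 min and 10.1 and 9.07 at 120 min, with 7.14, 7.12 and 9.79 in asynchronous cells. Smc2 (chromosome 4, 52439243–52488260) went from 2.44, 2.26 and 2.87 TPM to 3.68 and 2.82 at 40 min, 6.19 at 50 min, 7.53 and 4.77 at 60 min, 5.01 and 6.37 at 90 min and 4.77 and 3.97 at 120 min, with 3.48, 3.64 and 4.77 in asynchronous cells. The ratio of the pair, Smc4 over Smc2, was 2.05 ± 0.168 in mitosis (SD, n = 3), 2.06 at 60 min and 2.02 ± 0.0559 in asynchronous cells (n = 3). In the mitotic libraries the order of the mean levels was Smc4, Ncaph2, Smc2, Ncapg, Ncapd2, Ncapd3 and Ncaph, and from the third place on the libraries of neighbours in that order overlapped.

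**Figure D1:**
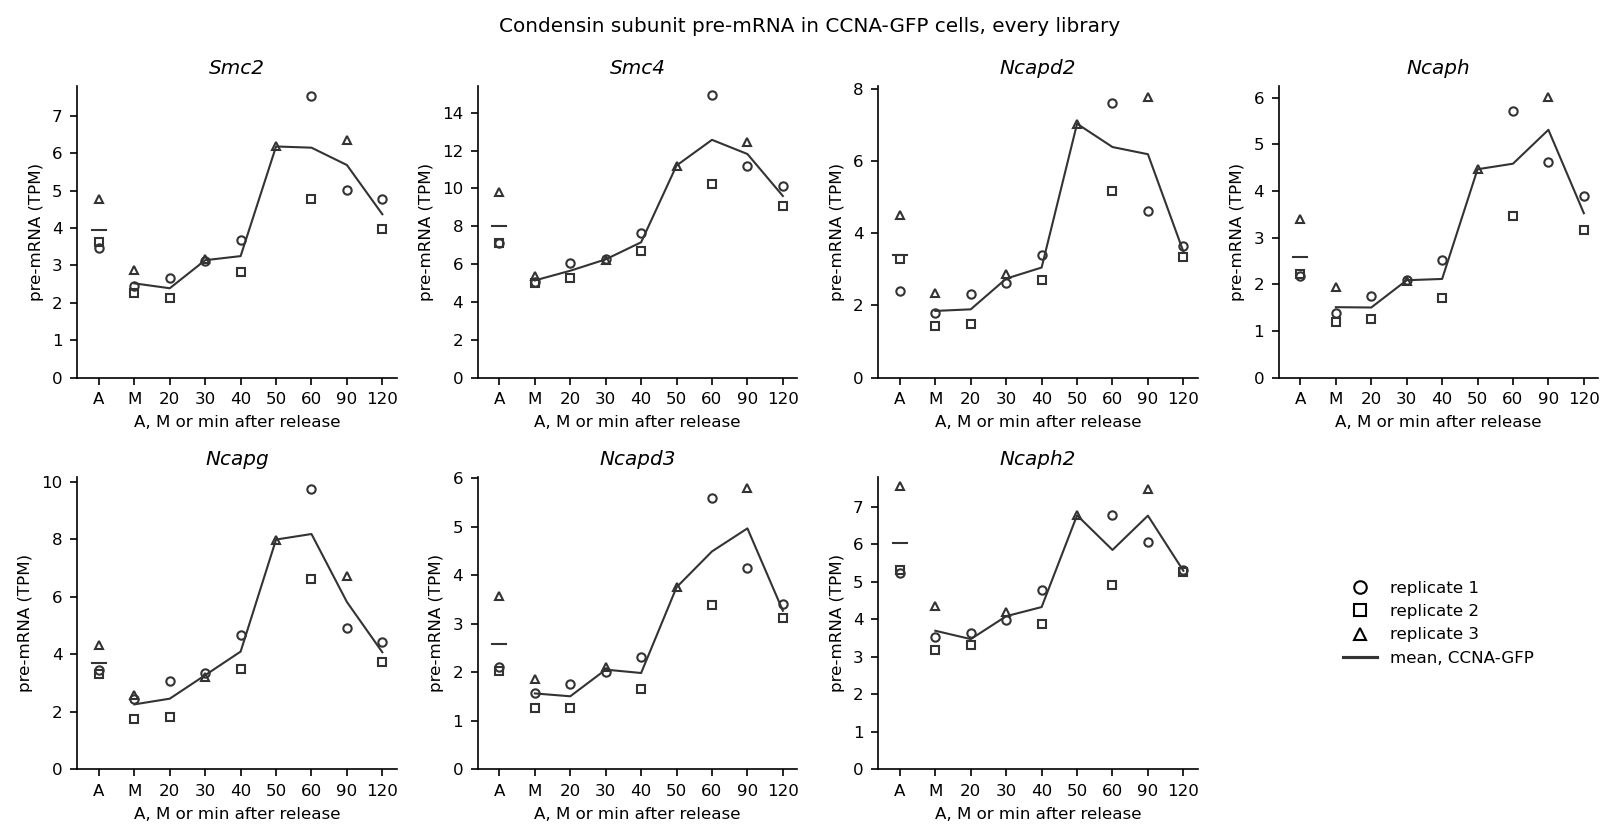
Pre-mRNA level (TPM, vertical axis from 0) of each condensin gene in every CCNA-GFP library, by stage (A asynchronous, M mitotic, then minutes after release, evenly spaced and not to scale in time). Symbols are replicates and lines are means; Ncapg and Ncapd2 reach their highest libraries at 60 and 90 min, respectively, and lie at 3.35–4.40 TPM by 120 min, whereas Ncaph2 on this deposited scale is within 4.91–7.46 TPM from 50 min on, beside 5.22–7.56 TPM in asynchronous cells.

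Counts of calls among the members were set beside the share of all genes called. At 20 and 30 min no member passed the test against mitosis (limma, 0 and 1 members at an unadjusted p under 0.05), beside 0.00% and 0.303% of all genes called higher. At 40 min 6 of 7 members were called higher, all but Ncaph2, against 49.3% of the 9911 genes, and without replicate 1 the number was 2. At 40 min Ncapg was higher and Ncaph2 lower on the equal-total scale (23.7% and 31.3% of genes). At 60 min it was 7 of 7 against 88.3%. The 7 members were also above mitosis after 90 min (89.1% of genes), after 120 min (90.2%) and in asynchronous cells (70.4%). Between 60 and 120 min 3 members fell (Ncapg, Ncapd2 and Smc2) against 28.5% of genes called lower, and 1 did without replicate 1. With equal totals 4 fell (Ncapd3 as well) and 0 rose, against 21.7% and 24.4% of genes. At 60 min 6 members stood above asynchronous cells, against 67.0% of genes, whereas on the equal-total scale 4 were higher (Ncapg, Ncapd2, Ncapd3 and Ncaph) and Ncaph2 was lower, against 3466 and 3486 of the 9911 genes. The median log2 fold change of the members at 60 min was 1.21 beside 0.79 for all genes. Relative to that median of all genes, Ncapg stood 0.79 and Ncapd2 0.73 higher, Ncaph, Ncapd3 and Smc4 0.46, 0.41 and 0.40 higher, Smc2 0.30 higher, and Ncaph2 0.15 lower. The equal-total scale moved the median of all genes at 60 min from 0.79 to 0.02, and the numbers called higher and lower from 8749 and 51 genes to 3607 and 3302 (36.4% and 33.3%). On it Ncapg (0.50), Ncapd2 (0.49), Ncaph (0.29) and Ncapd3 (0.23) were still called higher than in mitosis, Smc2 (0.01) and Smc4 (−0.02) were not called, and Ncaph2 was called lower (−0.48, limma adjusted p = 6.4e-06). After 90 min 2 members were higher and 1 lower than in mitosis on that scale (31.8% and 26.2% of genes), and after 120 min 1 was higher and 3 were lower (28.7% and 23.5%). In asynchronous cells none of the 7 was called against mitosis on it, beside 24.8% of genes higher and 20.3% lower (limma, with 1 of 7, Ncaph, at an unadjusted p under 0.05 and log2 fold changes of 0.02 to 0.20).

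The second question was whether the pattern held in the other line. At 60 min in CTCF-AID cells without IAA the condensin I genes Ncapd2, Ncapg and Ncaph again had the largest changes and Ncaph2 the smallest. Ncapg (1.01), Ncaph (0.98) and Ncapd3 of condensin II (0.91) lay close together, and the members were not tested against each other. At 40, 90 and 120 min it was Smc2 that changed least (0.18, 0.23 and 0.22, beside 0.29, 0.41 and 0.34 for Ncaph2). At 60 min the log2 fold change from mitosis was 1.13 for Ncapd2, 1.01 for Ncapg, 0.98 for Ncaph, 0.91 for Ncapd3, 0.73 for Smc4, 0.57 for Smc2 and 0.54 for Ncaph2, beside a median of 0.63 over 10237 genes. With IAA the values were 1.16, 1.25, 0.97, 0.84, 0.86, 0.65 and 0.51 in the same order of genes, beside a median of 0.63. The tables of the 2 lines were made separately, so these values stand side by side and the lines were not tested against each other.

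Ncapg in cells without IAA was at 2.81, 2.15 and 2.80 TPM in mitosis, 3.17 and 2.11 at 20 min, 5.98 and 3.95 at 40 min, 7.91 and 8.79 at 50 min, 6.48 and 5.14 at 60 min, 4.29 and 5.63 at 90 min, 4.22 and 3.21 at 120 min, and 3.48, 2.98 and 3.66 in asynchronous cells. With IAA it was at 2.30, 1.81 and 2.59 TPM in mitosis, 2.78 and 2.02 at 20 min, 5.49 and 3.78 at 40 min, 8.56 and 9.18 at 50 min, 6.92 and 5.56 at 60 min, 4.56 and 5.80 at 90 min, 4.05 and 3.38 at 120 min, and 3.50, 2.99 and 3.82 in asynchronous cells. In both arms the libraries at 50 min were the highest, above every library of all other stages, and the log2 fold change from mitosis there was 1.28 without and 1.50 with IAA (standard error 0.08, limma adjusted p = 5.4e-12 and 3.4e-13).

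Ncapd2 without IAA rose from 2.11, 1.95 and 2.43 TPM in mitosis to 3.86 and 3.78 at 40 min, 5.40 and 7.28 at 50 min and 5.13 and 5.84 at 60 min, and was at 2.50 and 5.0 at 90 min and 2.49 and 2.80 at 120 min, with 2.18, 2.74 and 3.21 in asynchronous cells. With IAA it rose from 1.96, 1.79 and 2.25 TPM to 3.60 and 3.64 at 40 min, 5.53 and 6.85 at 50 min and 5.04 and 5.49 at 60 min, and was at 3.15 and 4.64 at 90 min and 2.61 and 3.16 at 120 min, with 2.54, 3.01 and 3.04 in asynchronous cells. The libraries at 40, 50 and 60 min lay above all mitotic and asynchronous libraries in both arms, while the 2 libraries at 90 min were far apart.

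Ncaph2 without IAA was at 4.02, 3.44 and 4.27 TPM in mitosis, 6.20 and 6.50 at 50 min, 6.21 and 5.38 at 60 min, 4.65 and 5.12 at 120 min, and 4.89, 4.34 and 5.70 in asynchronous cells. With IAA it was at 3.96, 3.09 and 3.96 TPM in mitosis, 6.20 and 6.66 at 50 min, 5.86 and 4.78 at 60 min, 4.12 and 5.54 at 120 min, and 4.86, 4.22 and 5.07 in asynchronous cells. The libraries at 60 min overlapped the asynchronous ones in both arms. The other members rose from mitotic ranges of 1.64–2.67 TPM (Ncapd3), 2.00–3.06 (Ncaph), 2.62–3.96 (Smc2) and 5.61–6.45 (Smc4) over both arms to 4.06–4.48, 5.05–5.63, 4.68–5.91 and 10.5–11 TPM at 60 min.

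**Figure D2:**
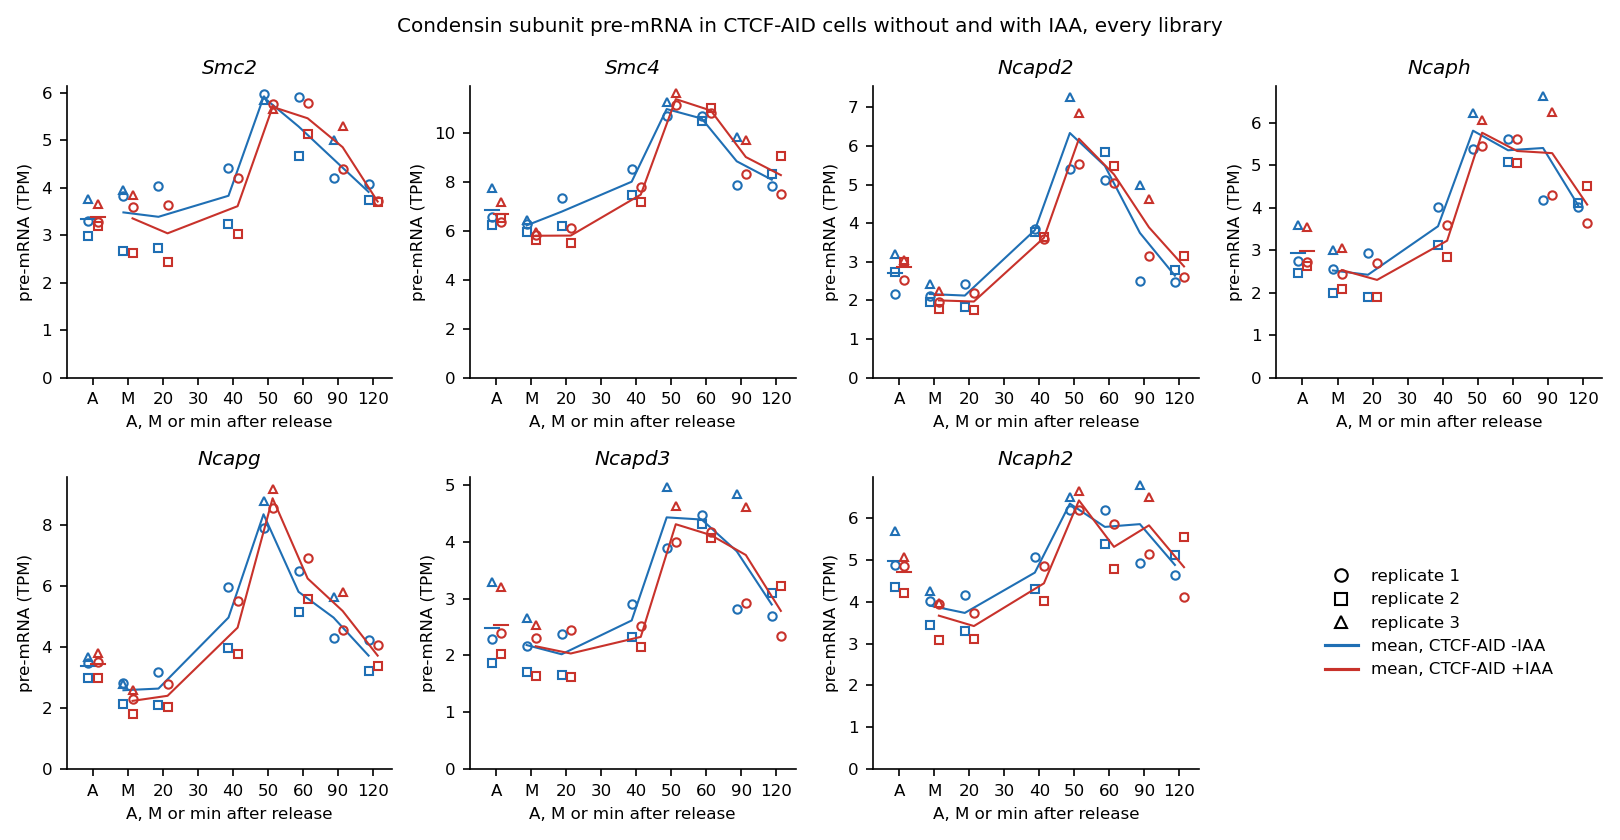
Pre-mRNA level (TPM, vertical axis from 0) of each condensin gene in every CTCF-AID library without (blue) and with (red) IAA, by stage (A asynchronous, M mitotic, then minutes after release, evenly spaced and not to scale in time). Symbols are replicates and lines are means; within replicate pairs the levels with IAA are 0.82 to 1.26 times those without, and Ncapg has its maximum at 50 min.

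At 20 min no member passed the test against mitosis in either arm (limma, 0 at an unadjusted p under 0.05), and no gene of the table was called higher (0.00% in each arm). At 40 min 6 of 7 members were above mitosis without IAA (all but Smc2) against 63.3% of genes, and 5 with IAA (all but Smc2 and Ncapd3) against 58.7%. With equal totals Ncapd2 and Ncapg were still called higher in both arms, Smc2, Smc4 and Ncaph2 were called lower in both, and so was Ncapd3 with IAA, that is 2 higher and 3 lower without IAA (33.3% and 36.7% of genes) and 2 higher and 4 lower with it (33.2% and 38.6%). The 7 were called in both arms at 50 min (79.1% of genes without and 78.2% with IAA), at 60 min (84.8% and 82.2%) and at 90 min (74.8% and 73.8%). On the equal-total scale the 50 min stage had 3 members higher and 3 lower than mitosis without IAA (40.7% and 33.6% of genes), and 2 higher and 2 lower with IAA (41.0% and 35.5%), with Ncapd2 and Ncapg higher and Smc2 and Ncaph2 lower in both arms. At the 90 min stage it had 1 higher and 2 lower without IAA (34.5% and 25.6%), and 2 higher and 1 lower with IAA (36.8% and 27.4%). At 120 min 7 were called without IAA against 69.6%, and 6 with IAA, all but Smc2, against 68.2%, and without replicate 2 the number was 3 in each arm. Equal totals left 1 member (Ncaph) higher and 3 (Smc2, Smc4 and Ncaph2) lower at 120 min without IAA (32.0% and 25.9% of genes), and 2 (Ncapg and Ncaph) higher and Smc2 lower with IAA (33.5% and 28.7%). Of the members in asynchronous cells, Ncapg (log2 fold change 0.29, limma adjusted p = 0.0037) and Ncaph2 (0.28, adjusted p = 0.022) were called above mitosis without IAA against 34.3% of genes, and Ncapd2 (0.36, adjusted p = 0.0062) joined them with IAA against 40.9%. These 2 and 3 calls in asynchronous cells turned to 4 and 5 without replicate 1 (the share of all genes in fits with a replicate left out is not given). They turned to 1 without replicate 3 in the arm without IAA, and to 1 without replicate 2 in the arm with IAA. They were 6 and 7 with each library divided by its own factor, where 6568 and 6699 of the 10237 genes were higher in place of 3515 and 4185, and on the equal-total scale 1 member was higher and 1 lower without IAA (27.2% and 21.4% of genes), and 2 were higher and 1 lower with IAA (29.8% and 22.4%). From 60 to 120 min 6 members fell in each arm, all but Ncaph2, against 53.1% of genes without and 50.8% with IAA, and 3 did in the arm with IAA without replicate 1. At 60 min 7 members were above asynchronous cells without IAA against 75.2%, and 6 with IAA, all but Ncaph2, against 72.2%. Equal totals left 3 members higher (Ncapd2, Ncapd3 and Ncaph) and 2 lower (Ncaph2 and Smc4) than in asynchronous cells without IAA (37.5% and 32.9% of genes), and with IAA Ncaph was higher and Ncaph2 lower (−0.42, standard error 0.06), against 36.9% and 33.9%. Ncapd2 fell most from 60 to 120 min, by 0.83 (standard error 0.13) without and 0.69 (standard error 0.13) with IAA, beside medians of −0.27 and −0.25 over all genes. On the equal-total scale, where 4030 genes (39.4%) were called higher and 3181 (31.1%) lower at 60 min without IAA in place of 8677 and 276, and 40.7% and 33.2% with IAA, Ncapd2, Ncapg and Ncaph were still above mitosis at 60 min in both arms. Ncapd3 was called higher without IAA (0.17, limma adjusted p = 0.019) and did not pass the test with IAA (0.11, adjusted p = 0.13). Ncaph2 and Smc2 were called lower on that scale in both arms (−0.28 and −0.23 without IAA, −0.31 and −0.15 with IAA), and Smc4 without IAA (−0.15). Of the falls from 60 to 120 min, that of Ncapd2 passed the test on that scale in both arms (−0.50 without and −0.37 with IAA), and that of Ncapg with IAA (−0.28), beside 26.5% of genes lower without and 27.2% with IAA. Ncaph2 with IAA was called higher at 120 than at 60 min on it (0.20, 26.6% of genes).

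**Figure D3:**
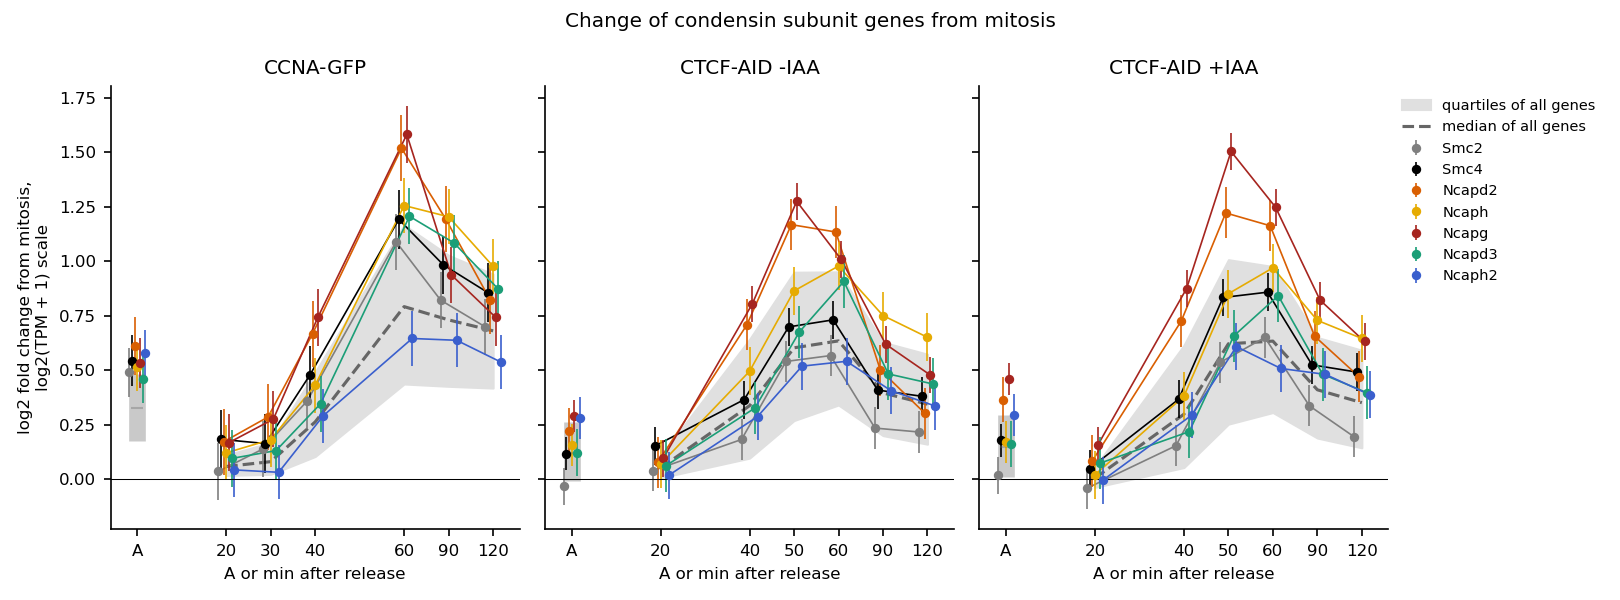
Log2 fold change from mitosis (log2(TPM + 1) scale, vertical axis) of the 7 condensin genes by stage (A asynchronous, then minutes after release, evenly spaced) in each line and arm, with standard errors from limma, beside the median (dashed) and quartiles (grey) of all genes. Ncapg and Ncapd2 lie above the upper quartile at 40 to 60 min in each panel, and Ncaph2 lies below the median at 60 min.

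Ratios between members within a library do not depend on how the libraries were scaled. The ratio of Ncapd2 plus Ncaph (condensin I) to Ncapd3 plus Ncaph2 (condensin II) was 0.633 ± 0.0499 in mitotic CCNA-GFP cells (SD, n = 3). It rose to 0.788 and 0.787 in the libraries at 30 min, 0.832 and 0.803 at 40 min, 1.09 at 50 min and 1.08 and 1.04 at 60 min, and was 0.861 and 0.776 at 120 min and 0.694 ± 0.0625 in asynchronous cells (n = 3). In CTCF-AID cells the ratio was 0.769 ± 0.0146 in mitosis, 1.12 ± 0.0782 at 50 min, 1.07 ± 0.0861 at 60 min and 0.863 ± 0.0318 at 120 min without IAA, and 0.780 ± 0.0656, 1.11 ± 0.0467, 1.13 ± 0.0911 and 0.920 ± 0.0637 with IAA (SD, n = 3 in mitosis and 2 otherwise). In each line and arm every library at 50 and 60 min lay above every mitotic and asynchronous library. How often other gene ratios separate in this way is not given. Ncaph2 was the larger part of the denominator, with a mean of 3.69 TPM in mitotic CCNA-GFP cells beside 1.56 for Ncapd3. Ncaph and Ncapd3 had similar means there (1.51 and 1.56 TPM) and at 60 min (4.59 and 4.49 TPM). The ratio also leaves out Ncapg and Ncapg2, so it does not measure the balance of the whole complexes. An exact two-sided permutation test of 60 min against mitosis, with the libraries taken as unpaired, gave p = 0.2 in each of the 3 courses. That is the smallest p that 2 against 3 libraries allow, so this test could not pass a threshold of 0.05.

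The ratio of the kleisins in CCNA-GFP cells, Ncaph over Ncaph2, went from 0.405 ± 0.036 in mitosis (SD, n = 3) to 0.774 ± 0.0973 and 0.784 ± 0.0311 after 60 and 90 min (n = 2 for both), and stood at 0.427 ± 0.0196 in asynchronous cells (n = 3). It went in CTCF-AID cells from 0.641 ± 0.0608 to 0.926 ± 0.0282 at 60 min without IAA, and from 0.689 ± 0.0782 to 1.01 ± 0.0675 with IAA. Ncapd2 over Ncapd3 went in CCNA-GFP cells from 1.17 ± 0.0722 in mitosis to 1.55 ± 0.134 at 40 min, 1.87 at 50 min and 1.07 ± 0.00388 at 120 min. Its mean in CTCF-AID cells was highest at 40 min, going from 1.01 ± 0.12 to 1.48 ± 0.205 without and from 0.942 ± 0.129 to 1.57 ± 0.189 with IAA. Ncapg over Smc2 rose from 0.889 ± 0.118 in mitosis to 1.34 ± 0.0652 at 60 min in CCNA-GFP cells, from 0.749 ± 0.0525 to 1.41 ± 0.126 at 50 min in CTCF-AID cells without IAA, and from 0.668 ± 0.0266 to 1.55 ± 0.0975 with IAA. The summed level of the 7 genes per 10000 listed TPM changed far less: in CCNA-GFP cells it was 12.1 ± 0.393 in mitosis, 13.0 ± 0.819 at 60 min, 10.6 ± 0.857 at 120 min and 13.0 ± 0.244 in asynchronous cells, and over the CTCF-AID libraries its stage means ran from 10.1 to 11.5.

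**Figure D4:**
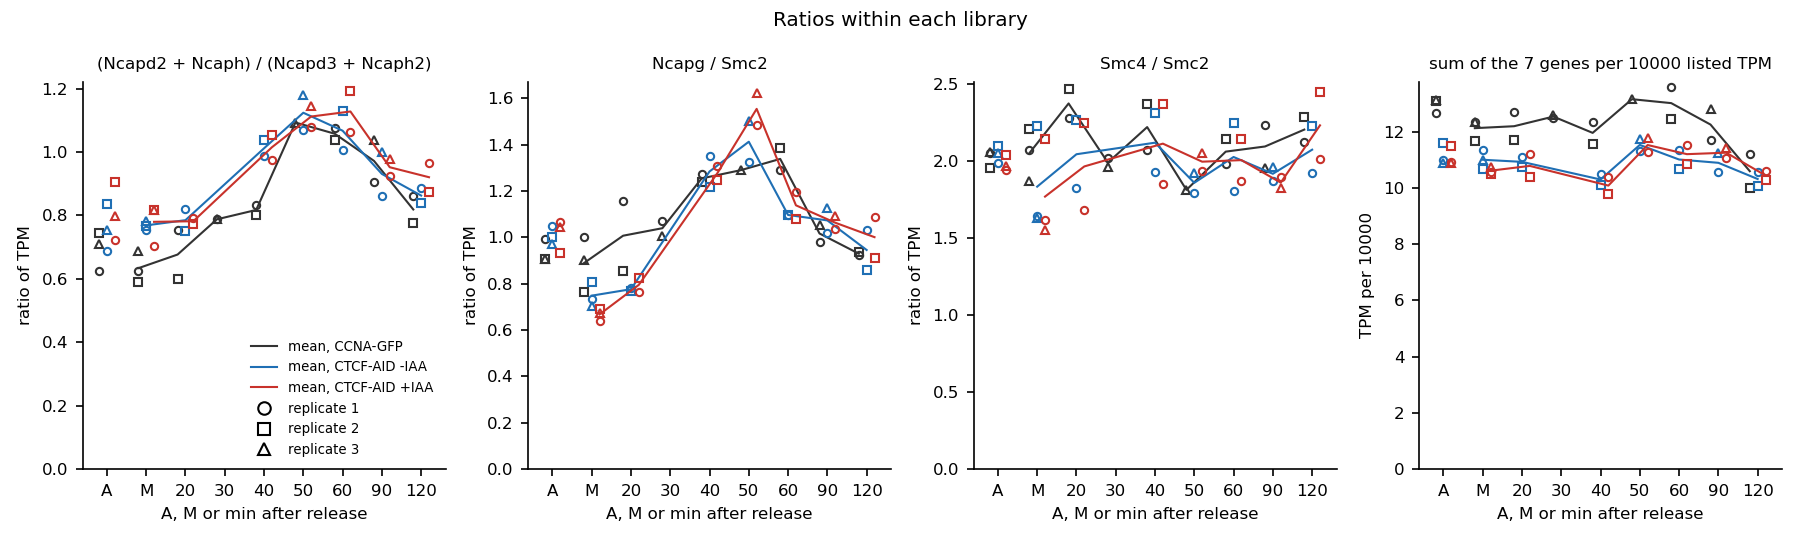
Ratios of TPM within each library (vertical axes from 0) by stage (A asynchronous, M mitotic, then minutes after release, evenly spaced) in CCNA-GFP cells (grey) and in CTCF-AID cells without (blue) and with (red) IAA, with symbols for replicates and lines for means. The ratio of Ncapd2 plus Ncaph to Ncapd3 plus Ncaph2 passes 1 at 50 and 60 min in all of them. Smc4 over Smc2 runs from 1.55 to 2.47 with no such peak, and the summed share of the 7 genes stays between 9.79 and 13.6 per 10000.

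The profiles over the 25 means of stage, line and arm were compared between members, and the 3 highest pairs are named first. As a description, with points that share replicates and a common rise, Pearson's r was 0.983 between Ncaph and Ncapd3, 0.978 between Ncapd2 and Ncapg, and 0.972 between Smc2 and Smc4. Other pairs came close to these, with 0.969 for Smc4 with Ncaph and for Smc2 with Ncapd3. The lowest values in the rows of Smc2 and Smc4 were those with Ncaph2, 0.909 and 0.906, and the lowest of all was 0.878 for Ncapg with Ncaph2. The 5 other genes most like the mean profile of the members were Ppil1 (0.991), Otud6b (0.990), Zc3h8 (0.990), Sumo2 (0.989) and Sh3bp5l (0.989), but 3290 of 9567 genes passed 0.9 and the median over all genes was 0.851.

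The third question was whether loss of CTCF changed the condensin genes. No member was called at any stage (limma, adjusted p under 0.1 and an absolute log2 difference over 0.2), and none had an unadjusted p under 0.05 at any of the 8 stages. Among all genes 1.01% were called in asynchronous cells, 0.00% in mitosis, after 20 min and after 40 min, 0.283% after 50 min and 0.225% after 60 min. The share was 0.733% at the 90 min stage and 0.586% at the last one. By the rule of a call in asynchronous cells or in 2 or more time points after mitosis, 1.10% of genes and 0 of the 7 members were called, the latter with and without the replicate block. Averaged over the post-mitotic time points, the difference between +IAA and −IAA ran from −0.05 (Ncaph2 and Ncapd3) to 0.01 (Ncapg), with 95% intervals that together span −0.23 to 0.17, so that a mean change beyond these bounds lies outside the interval of every member. At single stages the intervals were wider, reaching −0.58 for Ncapd3 at 40 min and 0.49 for Ncapg at 60 min. With the replicate block these bounds were −0.39 and 0.28, and the highest bound at a single stage was 0.35 (Ncapd2 at 120 min).

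Within replicate pairs the levels with IAA were 0.82 to 1.26 times those without. All 14 pairs of the 7 genes at 40 min, 12 of 14 at 20 min and 18 of 21 in mitosis were lower with IAA. Asynchronous cells had 11 of 21 lower. Of the 14 pairs of each later stage, those lower with IAA numbered 6 (50 min), 8 (60 min), 5 (90 min) and 7 (120 min). Genes of a library share its scaling and are not independent, and the share of such pairs among all genes is not given. The median difference of all genes was −0.05 at 40 min, −0.06 at 20 min and −0.01 in mitosis, beside −0.08, −0.09 and −0.07 for the members. On the equal-total scale the members' differences at 40 min ran from −0.07 to −0.01, those at 20 min from −0.09 to 0.09 with a median of −0.01, and the median in mitosis was −0.05. In a test of the differences between effects, neither the difference in the IAA effect between 20 to 60 min and asynchronous cells (0 of 7 called, 0.0195% of all genes) nor that in the rise from mitosis to 60 min (0 of 7, 0.00% of all genes) passed the test for any member. The latter was 0.24 for Ncapg, the widest, with a limma adjusted p of 1.0.

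**Figure D5:**
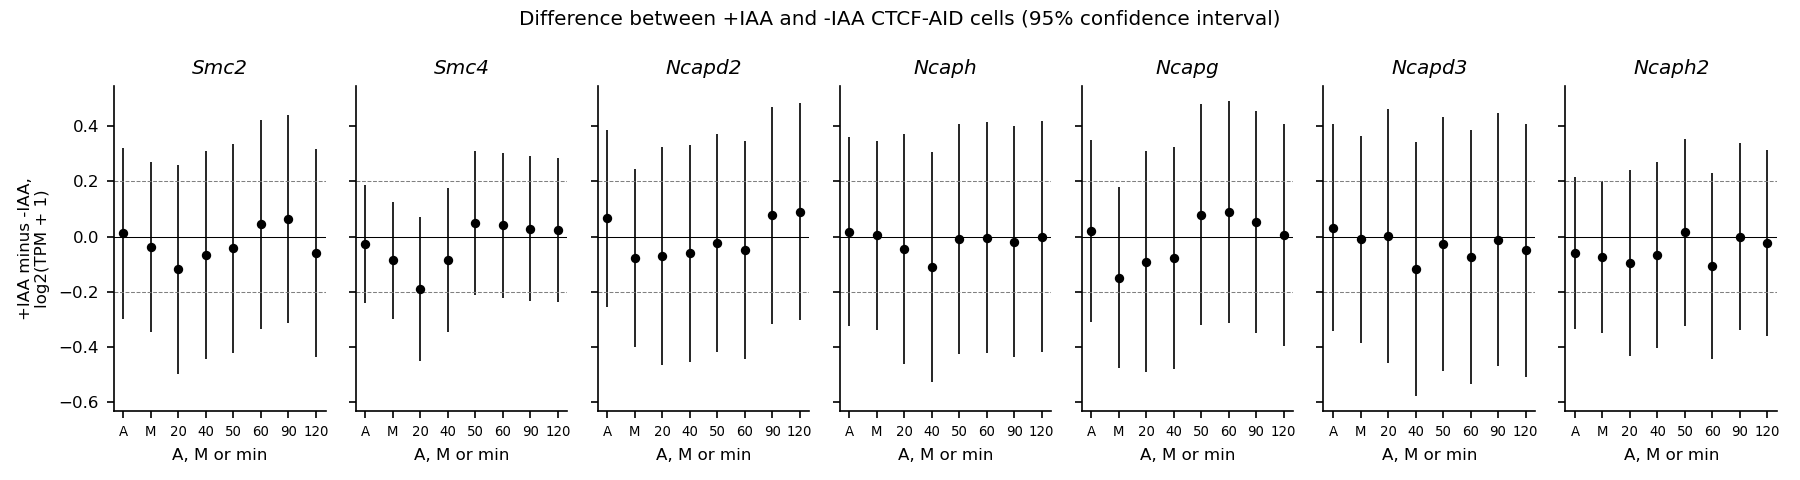
Difference between +IAA and −IAA CTCF-AID cells (log2(TPM + 1), vertical axis) for each condensin gene by stage (A asynchronous, M mitotic, then minutes after release), with points for the limma estimate and bars for its 95% confidence interval. Dashed lines mark the threshold of 0.2 in each direction; every interval includes 0.

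Genes that work with condensin were described from lists. Of 21 condensin regulators and chromosome-compaction partners, all 21 were listed for CCNA-GFP. On the deposited scale 12 rose from mitosis by 40 min (49.3% of all genes) and 21 by 60 min (88.3%), with a median of 0.83 beside 0.79 for all genes, whereas on the equal-total scale 5 rose and 8 fell by 40 min (23.7% and 31.3% of all genes) and 8 rose and 11 fell by 60 min (36.4% and 33.3%). From 60 to 120 min 12 of them fell on the deposited scale (28.5% of all genes) and 0 rose, and on the equal-total scale 13 fell (21.7%) and 3 rose (24.4%). Ppp2r1a, the scaffold subunit of the phosphatase PP2A, had the largest log2 fold change at 60 min (1.65, standard error 0.14), followed by Set, an inhibitor of PP2A (1.55, standard error 0.14), and Top2b, a type II topoisomerase, had the smallest (0.29, standard error 0.07, and −0.06 on the equal-total scale, where it did not pass the test). In CTCF-AID cells 20 were listed, and 19 were called higher at 60 min in each arm (84.8% of all genes without and 82.2% with IAA), against 5 higher and 9 lower without IAA (39.4% and 31.1%) and 7 and 7 with it (40.7% and 33.2%) on the equal-total scale.

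Of 23 genes of the other SMC complexes, cohesin and SMC5/6 with their regulators, 20 were listed for CCNA-GFP. Of these 8 had risen from mitosis by 40 min (49.3% of all genes) and 19 by 60 min (88.3%), with a median of 0.91, and on the equal-total scale 3 rose and 7 fell by 40 min (23.7% and 31.3%) and 9 rose and 6 fell by 60 min (36.4% and 33.3%). Esco2, an acetyltransferase that acts on cohesin in S phase, changed most (1.75, standard error 0.13), then Mau2, part of the cohesin loader (1.36, standard error 0.13), whereas Stag1, a cohesin subunit, changed least (0.24, standard error 0.11, limma adjusted p = 0.052, and −0.69 on the equal-total scale, adjusted p = 8.0e-06) and was higher at 120 than at 60 min by 0.51 (standard error 0.12, adjusted p = 0.0031). From 60 to 120 min 7 of the 20 fell on the deposited scale (28.5% of all genes) and 2 rose (951 of 9911 genes). On the equal-total scale 7 fell (21.7%) and 8 rose (24.4%). Of 21 listed for CTCF-AID, 19 were called higher at 60 min without IAA (84.8% of all genes), and 17 higher (82.2%) and 1 lower with IAA (414 of 10237 genes lower), in place of which the equal-total scale gave 6 higher and 8 lower (39.4% and 31.1%), and 6 higher and 10 lower (40.7% and 33.2%). Nsmce4a, a subunit of SMC5/6, was the one gene of the 3 lists called between arms, at −0.46 over the post-mitotic time points (standard error 0.05, limma adjusted p = 2.2e-07). In asynchronous cells the difference was −0.43 (standard error 0.09, adjusted p = 0.014).

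All 23 genes of the list transcribed towards G2 and mitosis were listed in both tables. In CCNA-GFP cells 15 rose from mitosis by 40 min (49.3% of all genes) and 21 by 60 min (88.3%), with a median of 1.02, and on the equal-total scale 7 rose and 9 fell by 40 min (23.7% and 31.3%) and 6 rose and 8 fell by 60 min (36.4% and 33.3%). From 60 to 120 min 17 fell on either scale (28.5% of all genes on the deposited and 21.7% on the equal-total one), with a median of −0.62 on the deposited scale beside −0.11 for all genes. Kif20a, a kinesin of cytokinesis, and Ube2c, a ubiquitin-conjugating enzyme of the anaphase-promoting complex, changed most at 60 min (1.79, standard error 0.14, and 1.73, standard error 0.15) and fell from 60 to 120 min by 0.86 and 0.98. Cenpa, the centromeric histone H3 variant, changed least (0.12, standard error 0.13, limma adjusted p = 0.37, and −1.04 on the equal-total scale, adjusted p = 8.1e-07) and was called lower than in mitosis at 60 min in CTCF-AID cells (−0.26, standard error 0.08, adjusted p = 0.0065, without IAA). At 60 min in these cells 19 of the list were higher than in mitosis and 1 lower without IAA (8677 and 276 of 10237 genes). With IAA 21 were higher and 1 lower (8419 and 414 genes). On the equal-total scale the numbers were 5 and 13 without IAA (39.4% and 31.1% of all genes), and 6 and 9 with it (40.7% and 33.2%). Without IAA 19 of the list fell from 60 to 120 min (53.1% of all genes) and with IAA 20 (50.8%), and on the equal-total scale 15 fell and 2 rose in each arm (26.5% and 25.6% of all genes without IAA, 27.2% and 26.6% with it).

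Several members start beside another gene on the opposite strand, and the changes of these neighbours are given beside those of the members, with no test of the difference. Lmf2 starts 60 bp from Ncaph2 and changed from mitosis to 60 min by 1.95 on the log2 scale in CCNA-GFP cells (standard error 0.15) against 0.65 for Ncaph2 itself, or by 1.09 against −0.48 on the equal-total scale. Vps26b, 110 bp from Ncapd3, rose by 1.81 (standard error 0.12) and fell by 0.96 from 60 to 120 min, while Ncapd3 rose by 1.21 and went down by 0.33, which did not pass the test. Mrpl51, 100 bp from Ncapd2, rose by 1.30 (standard error 0.12), and Ift80, 168 bp from Smc4, by 0.77 (standard error 0.10, and 0.02 on the equal-total scale, where neither it nor Smc4 passed the test). Lcorl, which overlaps the 3′ end of Ncapg on the other strand, rose by 1.13 in CCNA-GFP cells (standard error 0.12). Between 60 and 120 min, when Ncapg fell, Lcorl did not pass the test there (0.10, standard error 0.13). In CTCF-AID cells the mean level of Lcorl went from 3.57 TPM at 60 min to 2.26 at 120 min without IAA, and from 3.29 to 2.28 with IAA. Sco2, which overlaps Ncaph2 on the other strand, rose by 0.98 (standard error 0.13, and 0.03 on the equal-total scale, which did not pass the test). Beside Ncapg2, which is not listed, the non-coding RNA D430020J02Rik starts 192 bp away and rose by 1.43 (standard error 0.16, and 0.40 with an adjusted p of 0.076 on the equal-total scale). The libraries are stranded, so genes on opposite strands can be told apart, whereas the microRNAs Mir15b and Mir16-2 inside Smc4 and the small RNA Scarna10 inside Ncapd2 lie on the same strand as their host.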

How the data were processed

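The members and the gene lists were chosen with earlier results of these data known. The authors mapped the reads with STAR (mm10), estimated levels with RSEM, for which each Gencode vM12 gene had been given an extra pre-mRNA isoform, and deposited TPM of genes above 0.5 TPM in asynchronous cells or in 2 post-mitotic samples. The headers of the asynchronous CTCF-AID libraries are garbled, and these columns were matched by arm and replicate. The tests used limma 3.58.1 (R 4.3.3, eBayes with a trend) on log2(TPM + 1), over all genes of a table, with Benjamini-Hochberg adjustment, and were tested on simulated data. DESeq2, which the authors used on counts, needs counts and was not run. Stages were compared at an adjusted p under 0.05 with a block for the replicate number, and IAA effects at an adjusted p under 0.1 and an absolute log2 change over 0.2 without it. The replicate numbers pair the libraries: deviations of same-numbered libraries correlated above 0.1 for 41 of 41 pairs of CCNA-GFP stages (0.13–0.802) and 182 of 182 in CTCF-AID (0.11–0.884). Replicates of one group were not copies of each other (at most 0.313% of values identical in a pair). Named genes are the members, the 5 most like them, listed neighbours within 1 kb or overlapping, and, of each list, the 2 largest and the smallest changes at 60 min in CCNA-GFP. Nsmce4a was named after its values were known. Gene positions come from Gencode vM21 (GRCm38). The alternatives were another pseudocount (0.1), a minimum mean of 1 TPM, 2 other scalings, no trend, the block, and leaving out each replicate. Other steps ran in Python 3.11.15 (numpy 2.4.6, pandas 2.3.3, scipy 1.17.1), and plots were drawn with matplotlib 3.10.9.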

Additional observations from a re-analysis of the deposited data

How the results depend on the processing

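The number of condensin genes called changed with how the libraries are scaled to each other, and the depth behind the TPM is unknown. On the equal-total scale (all listed TPM of a library brought to one sum) the number called higher than in mitosis went in CCNA-GFP cells from 6 to 1 at 40 min, from 7 to 4 at 60 min, from 7 to 1 at 120 min and from 7 to 0 in asynchronous cells (limma, 1 at an unadjusted p under 0.05), and 1, 1, 3 and 0 members were called lower there. Without IAA it went in CTCF-AID cells from 6 to 2, 7 to 4, 7 to 1 and 2 to 1, with 3, 3, 3 and 1 called lower, and with IAA from 5 to 2 at 40 min, 7 to 3 at 60 min and 6 to 2 at 120 min, with 4, 2 and 1 called lower. The number lower at 120 than at 60 min went from 3 to 4 in CCNA-GFP cells, and in CTCF-AID cells from 6 to 1 without and from 6 to 2 with IAA, where 1 was higher, and the number that differed between 60 min and asynchronous cells went with IAA from 6, which were higher, to 2, of which 1 was higher and 1 lower. That contrast had 4 members higher and 1 lower in CCNA-GFP cells in place of 6 higher, and 3 higher and 2 lower without IAA in place of 7 higher. Single changes that took the other sign on this scale at 40 min against mitosis were those of Smc2 (−0.11, and −0.33 in each CTCF-AID arm), Smc4 (−0.054, −0.20 without and −0.16 with IAA), Ncapd3 (−0.063, −0.13 and −0.21), Ncaph2 (−0.22, −0.24 and −0.20) and Ncaph with IAA (−0.071). At 60 min they were those of Ncaph2 (−0.48 in CCNA-GFP, −0.28 without and −0.31 with IAA), Smc4 (−0.020, −0.15 and −0.027) and, in CTCF-AID cells, Smc2 (−0.23 and −0.15). From 60 to 120 min they were those of Ncaph2 (0.056, 0.13 and 0.20), Ncaph (0.0064 without and 0.0016 with IAA) and Smc4 without IAA (0.014). In asynchronous against mitotic CTCF-AID cells they were those of Smc4 (−0.049 without and −0.021 with IAA), Ncapd3 without IAA (−0.013) and Smc2 with IAA (−0.17), and in the mean IAA effect those of Smc4 (0.010) and Ncapd2 (0.023). With each library divided by its step factor, 6 in place of 2 members were called in asynchronous cells without IAA and 7 in place of 3 with IAA, the change of Smc2 in asynchronous cells without IAA was 0.15, and the mean IAA effects of Smc2, Smc4, Ncapd2 and Ncaph were 0.011, 0.024, 0.028 and 0.010. Over all genes at 60 min in CCNA-GFP cells, 3607 were called higher and 3302 lower on the equal-total scale, and 7751 and 36 with the step factor. The cause of these differences was not tested.

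Without the replicate block, which takes out the shared level of same-numbered libraries, fewer members passed the threshold in the comparisons below, and none of 84 single changes turned its sign. In CCNA-GFP cells 1 was called at 40 min and 1 fell from 60 to 120 min. Without IAA 3 were called at 40 min, 2 at 120 min and 0 in asynchronous cells (limma), and 3 fell from 60 to 120 min. With IAA 3 were called at 40 min, 3 at 120 min and 1 in asynchronous cells, and 3 fell. Among all genes the number higher at 40 min in CCNA-GFP cells was 2362 in place of 4888. For the other comparisons the number of all genes called without the block is not given. The member counts there do not show whether members lost calls more often than other genes. For the IAA effects the counts were 0 of 7 with and without the replicate block (limma, 0 at an unadjusted p under 0.05 in both), and the block narrowed the intervals of the mean effect to −0.16 to 0.10.

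When each replicate was left out in turn, the number called in CCNA-GFP cells ran from 2 to 6 at 40 min and from 1 to 4 for the fall from 60 to 120 min, in both cases lowest without replicate 1. In CTCF-AID cells it ran from 3 to 7 at 120 min in each arm, lowest without replicate 2, from 1 to 4 in asynchronous cells without IAA and from 1 to 5 with IAA, and from 3 to 7 for the fall with IAA, lowest without replicate 1. The change of Ncaph2 from 60 to 120 min ran from −0.30 to 0.081 in CCNA-GFP cells and from −0.42 to 0.18 with IAA. That of Smc2 in asynchronous cells ran from −0.11 to 0.032 without and from −0.081 to 0.076 with IAA, and the mean IAA effect from −0.032 to 0.031 for Ncapd2 and from −0.012 to 0.025 for Ncapg. Where leaving out a replicate reduces a stage to 1 library, that library is assumed to vary like the others. For all these fits, here and above, the share of all genes called is not given. The member counts therefore do not show whether members gained or lost calls more often than other genes. Of 91 single changes and IAA effects of the members, 89 kept sign and side of the threshold with a pseudocount of 0.1, 91 with a minimum mean of 1 TPM and 88 without a trend, as did 75 with the step factor, 36 on the equal-total scale and 61 of 84 without the block.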
